A study of Mus musculus with 30 samples.

Results

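The loci described here are those of Fhit, Trappc6b and Glis3, 3 mouse genes in or beside which chromatin accessibility was lost most strongly after actin was perturbed for 24 h. Accessibility was measured by ATAC-seq, in which a transposase cuts open DNA, so that the reads counted in a genomic window follow how accessible it is. A window of either deposited table was taken as a member when it lay in the body of 1 of these genes or within 50 kb of its transcription start site (TSS) in GRCm38 with GENCODE vM21. This gave 213 of the 305931 windows of the 24 h table (99 at Fhit, 32 at Trappc6b and 82 at Glis3) and 230 of the 369846 windows of the 4 h table (112, 29 and 89). The loci were chosen by their losses with CK666 or cytochalasin D (CytoD) at 24 h, so that their 24 h values are a description and carry no test, whereas the 4 h libraries played no part in the choice.

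Of the 30 libraries of the series, 21 were used, in 7 groups of 3. Marrow-derived mesenchymal stem cells (MSC) of male C57BL/6J mice were left untreated, treated with CK666, an inhibitor of the Arp2/3 complex that branches actin filaments, or treated with CytoD, an inhibitor of actin polymerization, for 24 h. MSC and NIH3T3 cells, an established mouse embryonic fibroblast line whose libraries carry the same strain and sex label, were left untreated or treated with CK666 for 4 h. The authors give strain and sex for the MSC alone, so that label is uncertain for NIH3T3 cells. The labels give no engineered genetic change for any group, and the 9 siRNA libraries were left out. The genomes of the cell types were not compared. The MSC were 1 primary line made from the marrow of several mice, and the labels do not say whether replicates came from separate cultures, so p-values measure the spread between these libraries, which may be technical.

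Fhit encodes a diadenosine triphosphate hydrolase of the histidine triad family and spans a common fragile site, a stretch of a very long gene that breaks easily under replication stress. Trappc6b encodes a subunit of the TRAPP complexes, which tether vesicles on the way through the Golgi. Glis3 encodes a Krüppel-like zinc finger transcription factor known for its roles in pancreatic beta cells, thyroid and kidney. Open windows away from a TSS often are enhancers, which are bound by transcription factors such as AP-1, TEAD, RUNX and C/EBP, all of them active in mesenchymal cells.

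All 3 genes lie on the minus strand. Fhit (ENSMUSG00000060579.13) covers chr14:9550092-11162035, Trappc6b (ENSMUSG00000020993.9) covers chr12:59043092-59061472 and Glis3 (ENSMUSG00000052942.13) covers chr19:28258851-28680077. The central 300 bases of 5 windows that carry the losses are printed from the plus strand of GRCm38. They are the window with the largest loss in each locus among those with a mean of 50 normalized counts or more, the larger neighbour of the one at Trappc6b, and a Glis3 window that was lower with CytoD alone. Capitals mark matches, on either strand, to AP-1 (TGANTCA), TEAD (GGAATG), RUNX (TGTGGT), C/EBP (TTNNGCAA), an NFI core (TTGGCA), the AhR core (GCGTG) or the SRF CArG box.
Fhit intron window, chr14:9669892-9670191: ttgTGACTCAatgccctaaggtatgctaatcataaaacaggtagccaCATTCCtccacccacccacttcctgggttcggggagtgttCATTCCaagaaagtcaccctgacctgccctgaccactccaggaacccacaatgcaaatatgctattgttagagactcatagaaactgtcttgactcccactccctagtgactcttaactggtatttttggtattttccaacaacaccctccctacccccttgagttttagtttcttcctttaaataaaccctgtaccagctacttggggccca
Window past the 3′ end of Trappc6b, chr12:59041873-59042172: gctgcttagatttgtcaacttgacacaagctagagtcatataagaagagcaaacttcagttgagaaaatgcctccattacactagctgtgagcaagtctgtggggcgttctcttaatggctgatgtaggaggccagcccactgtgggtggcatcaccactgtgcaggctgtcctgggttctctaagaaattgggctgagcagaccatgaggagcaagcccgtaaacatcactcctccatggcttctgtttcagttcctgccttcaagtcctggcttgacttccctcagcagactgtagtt
snRNA window beside Trappc6b, chr12:59040437-59040736: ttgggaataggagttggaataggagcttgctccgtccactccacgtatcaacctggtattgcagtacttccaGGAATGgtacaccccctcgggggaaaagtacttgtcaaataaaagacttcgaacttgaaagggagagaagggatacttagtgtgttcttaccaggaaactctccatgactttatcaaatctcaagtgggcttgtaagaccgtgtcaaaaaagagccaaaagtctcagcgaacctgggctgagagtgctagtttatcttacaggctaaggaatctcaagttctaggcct
Glis3 intron window, chr19:28624671-28624970: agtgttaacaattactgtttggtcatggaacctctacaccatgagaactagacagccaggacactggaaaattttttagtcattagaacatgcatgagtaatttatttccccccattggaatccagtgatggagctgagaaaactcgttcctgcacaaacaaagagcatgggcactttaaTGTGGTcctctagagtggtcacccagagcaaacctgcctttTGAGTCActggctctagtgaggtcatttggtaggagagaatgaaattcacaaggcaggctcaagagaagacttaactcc
Glis3 intron window lower with CytoD alone, chr19:28389097-28389396: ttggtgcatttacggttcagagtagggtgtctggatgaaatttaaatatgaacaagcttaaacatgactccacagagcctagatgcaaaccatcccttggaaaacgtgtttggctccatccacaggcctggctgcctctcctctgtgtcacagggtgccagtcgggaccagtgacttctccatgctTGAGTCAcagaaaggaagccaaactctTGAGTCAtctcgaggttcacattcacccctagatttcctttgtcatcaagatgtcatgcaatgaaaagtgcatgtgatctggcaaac

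The Fhit sequence held an AP-1 match followed by a pair of TEAD matches, and the Glis3 sequence a RUNX and an AP-1 match. The sequence past the 3′ end of Trappc6b held no match to any of the 7 motifs. In the Fhit window 71.3% of the 300 bases were soft-masked as repeats in the reference, and in the window past Trappc6b 62.0%, against 0.0% in the Glis3 window. As reads from repeated sequence may be shared between places, words of 32 bases that occur elsewhere in the genome were counted over each whole window. They made up 19.0% of the words of the Fhit window, 2.04% of those of the window past Trappc6b, 4.31% of those of the snRNA window and 0 of the Glis3 window.

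Total counts ranged from 14071301 to 22352180 over the 9 libraries at 24 h and from 14496058 to 34979833 over the 12 libraries at 4 h, with the lowest in NIH3T3 CK666 replicate 1. Rank correlations between replicates were 0.869 to 0.917 at 24 h and 0.876 to 0.954 at 4 h, across windows with at least 20 counts on average. In untreated MSC at 24 h, the TSS windows of the mesenchymal genes Pdgfrb, Col1a1 and Pdgfra and of the marrow stroma gene Cxcl12 lay at the 96.7th, 80.9th, 75.4th and 80.6th percentile of all windows per kb, and that of Col1a2 at the 35.6th. Among the other mesenchymal markers Thy1 had no window at its TSS at 24 h and a level at the 0.1 percentile in MSC at 4 h (85.7 in NIH3T3), and Eng, Nt5e and Ly6a had none in either table. Lepr, a marrow stroma marker, had none at 24 h and lay at the 8.9th percentile in MSC at 4 h. The blood genes Ptprc, Spi1 and Itgam and the endothelial gene Pecam1 had no window at the TSS in either table, and the endothelial gene Cdh5 lay at the 23.7th percentile at 24 h and, at 4 h, at the 40.9th in MSC and the 65.0th in NIH3T3 cells. In such bulk libraries, fewer cells with an open window and a window less open in each cell cannot be told apart.

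Values are normalized counts, that is counts scaled to the mean effective library size of an experiment, and a window was called where it passed 2 limits in edgeR's quasi-likelihood test, an adjusted p below 0.01 and a log2 fold change above 1 or below -1. Among windows whose mean reached 50 normalized counts, the same window of each locus held the largest loss with both treatments, and it is called the most reduced window. Below that mean, 2 Glis3 windows had slightly larger losses with CK666, -1.30 (not called) and -1.26, against -1.24 in the most reduced one. Such losses were how the loci had been picked.

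In the Fhit locus this was an intronic window of 584 bp at chr14:9669750-9670333, 1491702 bp downstream of the TSS and so near the far end of the gene. Control libraries had 148, 168 and 115 normalized counts, CK666 libraries 13.1, 14.8 and 10.8, and CytoD libraries 30.5, 18.2 and 26.5. Every treated library lay far below every control library, and every CK666 library below every CytoD library. The log2 fold change was -3.46 (SE 0.261) with CK666, an 11-fold lower level, and -2.51 (SE 0.243) with CytoD, a 5.70-fold lower level. Among the 72625 windows whose mean reached 50 normalized counts, these were the largest and the second largest loss, at rank 1 and rank 2.

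In the Trappc6b locus it was an intergenic window of 570 bp at chr12:59041738-59042307, just past the 3′ end of the gene and 19165 bp from its TSS. Control libraries had 187, 212 and 228 normalized counts, CK666 libraries 29.0, 8.70 and 22.6, and CytoD libraries 28.0, 43.7 and 53.0. No treated library reached a control library, while CK666 replicate 1 and CytoD replicate 1 had nearly the same level. The log2 fold change was -3.39 (SE 0.228) with CK666 (10.5-fold lower, rank 2) and -2.30 (SE 0.208) with CytoD (4.93-fold lower, rank 7).

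In the Glis3 locus it was an intronic window of 674 bp at chr19:28624484-28625157, 54920 bp from the TSS. Control libraries had 90.9, 124 and 127 normalized counts, CK666 libraries 62.7, 32.2 and 52.1, and CytoD libraries 25.4, 9.72 and 18.3. The order of the treatments was the opposite of that in the other loci, and the 3 groups did not overlap. The log2 fold change was -2.69 (SE 0.272) with CytoD (6.43-fold lower, rank 1) and -1.24 (SE 0.227) with CK666 (2.35-fold lower, rank 774).

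**Figure D1:**
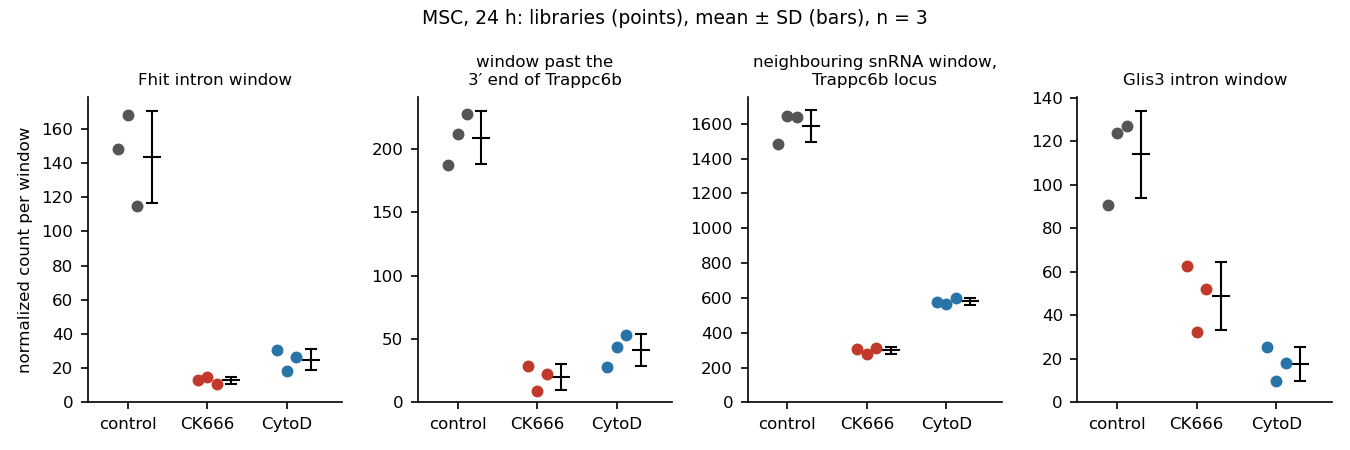
Normalized counts per window (y axis) of each MSC library at 24 h for the most reduced window of each locus and for the larger neighbour at Trappc6b, with 3 points per group and mean ± SD beside them. Every treated library sits below every control library in each of the 4 windows. CK666 libraries are lowest at Fhit (10.8 to 14.8) and at the snRNA window (278 to 311), and CytoD libraries at Glis3 (9.72 to 25.4).

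The largest loss in counts was next to the Trappc6b window, in a window of 2075 bp at chr12:59039549-59041623 that contains the snRNA gene Gm22973 (ENSMUSG00000065232.1, chr12:59040335-59040525). Control libraries had 1481, 1647 and 1636 normalized counts, CK666 libraries 307, 278 and 311, and CytoD libraries 575, 563 and 601. The groups were far apart and the replicates close, with means of 1588 ± 93.1, 299 ± 17.6 and 580 ± 19.0 (SD, n = 3). The level was 5.32-fold lower with CK666 (log2 fold change -2.41) and 2.74-fold lower with CytoD (-1.45). On the other side, a window at chr12:59042572-59043185 that reaches into the 3′ UTR of Trappc6b had 50.6, 63.9 and 42.9 normalized counts in control, 3.75, 13.9 and 12.8 with CK666 and 22.9, 9.72 and 12.8 with CytoD, log2 fold changes of -2.36 and -1.81.

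At Fhit, a pair of windows within 20 kb of the most reduced one were also called lower with CK666. The intronic window chr14:9687894-9689362 had 255, 278 and 302 normalized counts in control, 93.6, 109 and 111 with CK666 and 137, 154 and 147 with CytoD. Here too both treated groups lay below control, but the log2 fold change of -0.93 with CytoD was within the fold limit, against -1.42 with CK666. The window between, chr14:9676452-9677354, differed between the treatments. It had 79.2, 73.3 and 80.4 normalized counts in control, 37.5, 25.2 and 43.2 with CK666 (log2 fold change -1.14) and 84.0, 70.4 and 77.7 with CytoD (0.00), so that CytoD libraries overlapped control libraries and CK666 libraries did not. A window farther along the gene, chr14:9939100-9939678, was called lower with CytoD alone, with 72.7, 105 and 85.8 normalized counts in control, 34.4, 47.4 and 41.1 with CytoD (-1.11) and 57.1, 58.3 and 50.1 with CK666 (-0.68).

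In the Glis3 locus 5 windows were called lower with CytoD and 2 with CK666, and the most reduced window was the only one called with both. A strongly open intronic window at chr19:28388987-28389506 had 245, 251 and 285 normalized counts in control and 99.3, 107 and 121 with CytoD (log2 fold change -1.25). With CK666 it had 269, 228 and 279 (-0.02), which overlapped control. A second strongly open window, chr19:28646193-28646738, had 474, 557 and 501 normalized counts in control, 213, 283 and 242 with CytoD (-1.06) and 396, 369 and 376 with CK666 (-0.43). The windows starting at 28289250 and 28683312, the latter in an intron of the lincRNA D930032P07Rik, were called lower with CytoD (-1.06 and -1.08), and the one starting at 28590564 with CK666 (-1.26; -1.06 with CytoD, not called).

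The controls are shared by the CK666 and CytoD comparisons, so their counts are set side by side only. Of 210 tested locus windows, 8 were called lower with CK666 (3.81%; 1.06% of all tested windows) and 2 higher (0.952%; 1.88% of all). With CytoD 10 were called lower (4.76%; 1.40% of all) and 4 higher (1.90%; 0.980% of all). As these contrasts chose the loci, nothing is read from these shares. In all 13 windows were called lower with either treatment: 4 at Fhit, 3 at Trappc6b and 6 at Glis3. The gains were windows of low counts in all 3 loci, with log2 fold changes of 1.49 (Fhit) and 1.55 (Glis3) with CK666, and of 1.38 and 1.18 (Fhit), 1.11 (Trappc6b) and 1.59 (Glis3) with CytoD. The highest control mean among the 6 gained windows was 27.8 normalized counts, against a lowest of 50.1 among the 13 lost ones. The calls used the same control libraries, so this split follows in part from how the windows were picked.

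The 5′-most start sites of the genes had log2 fold changes near 0. A window inside Fhit at the start of another transcript, chr14:10452909-10453779, had -0.61 with CK666 and -0.39 with CytoD, not called. The TSS window of Fhit (chr14:11161626-11162396) had 222, 330 and 274 normalized counts in control, 300, 355 and 283 with CK666 and 289, 260 and 301 with CytoD, with log2 fold changes of 0.17 and 0.03. That of Trappc6b (chr12:59060142-59061726) had 627, 677 and 699, then 721, 599 and 727 with CK666 (0.03) and 620, 666 and 587 with CytoD (-0.10). In both genes the groups overlapped. That of Glis3 (chr19:28677331-28680456) had 526, 582 and 625 in control, 534, 470 and 478 with CK666 (-0.23) and 495, 520 and 475 with CytoD (-0.22), where every CytoD library lay below every control library. The TSS windows of the genes next to Trappc6b also had small log2 fold changes, 0.08 and -0.15 at Gemin2, 0.16 and 0.09 at Sec23a and -0.12 and -0.12 at Pnn, with CK666 and CytoD.

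To follow how far the loss spread, tested windows on both sides of the most reduced one were joined as long as every treated library lay below every control library. Around the Trappc6b window this run held 3 windows over 3.6 kb with either treatment. Around the Fhit window it held 3 windows over 7.6 kb with CK666 and the window alone, 0.6 kb, with CytoD. Around the Glis3 window it was the window alone, 0.7 kb, with either treatment. Over all tested windows 11.8% with CK666 and 13.1% with CytoD had every treated library below every control library, while in the loci they were 39 of 210 (18.6%) and 36 of 210 (17.1%).

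The reach of a run depended on single libraries. Without control replicate 2 the Trappc6b run with CK666 was 10 kb long, without control replicate 1 the Fhit run with CytoD was 1.9 kb and the Glis3 run with CytoD 4.2 kb, without CytoD replicate 3 the Fhit run was 5 kb, and without CytoD replicate 2 the Glis3 run was 4.2 kb.

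The median log2 fold change by distance showed the same steep edge at Trappc6b. It was -1.84 over the 4 windows within 5 kb with CK666 and 0.18 over the 10 windows at 5 to 20 kb, and -1.35 and 0.32 with CytoD. At Fhit it was -0.59 within 5 kb (2 windows), -1.14 at 5 to 20 kb (3 windows) and 0.15 at 20 to 50 kb (14 windows) with CK666. With CytoD the same bins gave -0.65, 0.00 and 0.10, so that the median was at 0 from 5 kb onward. At Glis3 the 4 windows within 5 kb had medians of 0.42 with CK666 and -0.24 with CytoD. The 2 nearest windows on each side of the Glis3 window had log2 fold changes of 0.29, 0.39, 0.45 and 0.76 with CK666, in the opposite direction to the window between them, and of -0.53, -0.53, 0.05 and -0.05 with CytoD. The highest value within 5 kb was 1.35 with CK666 and 1.79 with CytoD, not called with either.

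**Figure D2:**
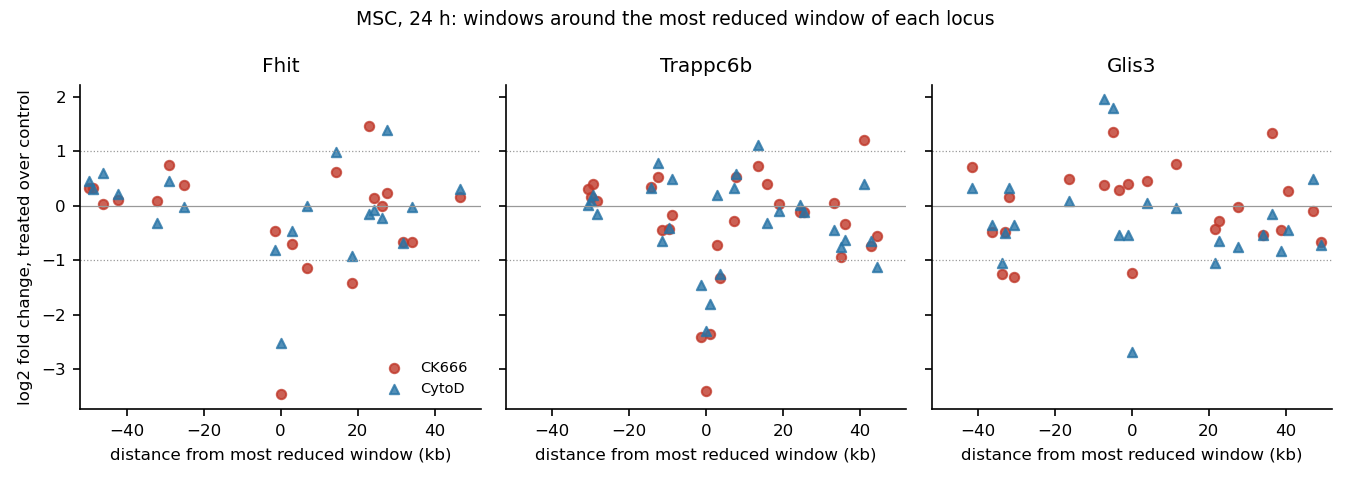
Log2 fold change of treated over control MSC at 24 h (y axis) for each tested window within 50 kb of the most reduced window, against its distance from that window in kb (x axis), for CK666 (circles) and CytoD (triangles), with dotted lines at -1 and 1. At Trappc6b 3 adjoining windows lie between -3.39 and -1.45, whereas the 2 nearest windows on each side of the Glis3 window lie between -0.53 and 0.76, and a further one within 5 kb at 1.35 with CK666 and 1.79 with CytoD.

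Summed over a locus, the losses had different weights. At Trappc6b the 32 windows had 6875, 7011 and 7046 normalized counts in control, 5619, 5130 and 5921 with CK666 and 5712, 5620 and 5485 with CytoD. The sum was lower by 20.4% with CK666 and by 19.7% with CytoD, with no overlap. Without the 4 called windows it differed from control by 1.6% with CK666, where the groups overlapped. With CytoD it differed by -3.7%, and every CytoD library still lay below every control library. The 3 lost windows, which were lower by 82.2% and 65.6%, thus held most of the difference. In each locus the called windows were picked by these same counts, so such a split follows in part from that choice.

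At Fhit the 99 windows had 3956, 4309 and 4199 normalized counts in control, 3531, 3415 and 3282 with CK666 (17.9% lower) and 3877, 4240 and 4085 with CytoD (2.1% lower). CK666 libraries lay below all control libraries and CytoD libraries overlapped them. The 92 windows called with neither treatment were still 11.8% lower with CK666, and 3.7% higher with CytoD. At Glis3 the 82 windows had 5308, 5835 and 5934 normalized counts in control, 5079, 4780 and 4850 with CK666 (13.9% lower) and 4394, 4413 and 4373 with CytoD (22.8% lower), and neither treated group reached the controls. The 74 windows called with neither treatment were lower by 11.4% and 15.1%. The median log2 fold change per locus with CK666 was -0.13 at Fhit, -0.22 at Trappc6b and -0.02 at Glis3, and with CytoD -0.02, -0.11 and -0.17, beside 0.02 and 0.04 over all tested windows.

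**Figure D3:**
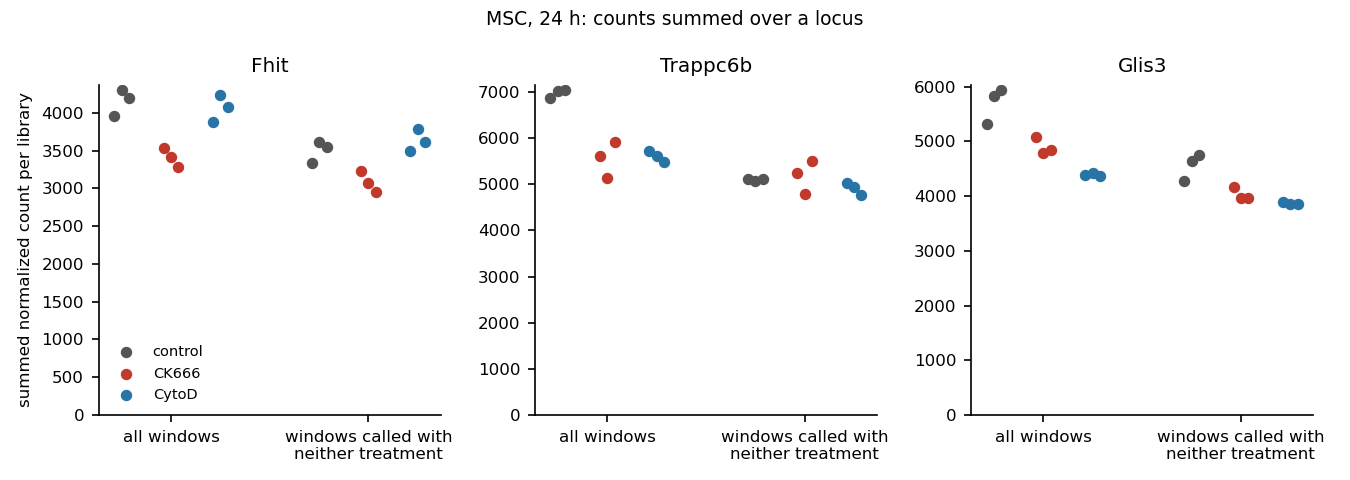
Summed normalized counts of each MSC library at 24 h (y axis, starting at 0) over all windows of a locus and over the windows called with neither treatment, with 3 points per group. At Trappc6b the CK666 sums lie at 5130 to 5921 over all windows, below the controls at 6875 to 7046, and overlap the controls once called windows are left out. At Glis3 both treated groups lie below the controls in either sum.

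Just inside the border of the loci, the outermost windows had log2 fold changes with CK666 and CytoD of 0.27 and -0.15 on the low side and -1.67 and -1.01 on the high side of Fhit, and the first windows outside had -0.28 and -1.0 and -0.74 and -1.59. At Trappc6b they were 0.30 and 0.02 and -0.29 and 0.06 inside, and 0.00 and -0.02 and 0.06 and 0.12 outside. At Glis3 they were -0.27 and 0.63 and -1.09 and -0.55 inside, and -0.23 and 0.82 and 0.70 and 0.23 outside. None of the outermost windows inside was called with either treatment, including the one with -1.67 at Fhit. Those outside are given as values only.

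The 4 h libraries were independent of the choice of loci and show whether the losses with CK666 were present earlier. No library was treated with CytoD for 4 h, so they cannot show this for the losses with CytoD. In MSC the accessibility of the Trappc6b 3′ end and of the Glis3 window fell within 4 h of CK666, and that of 2 Fhit windows fell by less. The 4 h window over the most reduced Fhit window also held sequence outside it. In NIH3T3 cells none of the 24 h losses was called at 4 h. Window borders differ between the tables, and 164 of the 213 windows at 24 h overlapped a 4 h window by at least 1 bp. Counts at 4 h are on a scale of their own and cannot be set against those at 24 h.

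At Trappc6b a single window of 2476 bp, chr12:59039792-59042267, covered the snRNA window and the most reduced window of the 24 h table. MSC control libraries had 4232, 4265 and 4122 normalized counts and MSC CK666 libraries 2129, 2210 and 2210. This was among the most open windows of untreated MSC, at the 99.5th percentile per kb, and its level was 1.93-fold lower with no overlap between groups. The log2 fold change was -0.95 (SE 0.0459, edgeR adjusted p = 3.53e-30), just short of the fold limit.

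The 3′ UTR window, chr12:59042370-59043156, passed both limits. It had 199, 178 and 138 normalized counts in MSC control libraries and 50.6, 41.4 and 38.7 with CK666, a 3.96-fold lower level (log2 fold change -1.98, SE 0.178, edgeR adjusted p = 5.95e-15). The neighbouring window over a coding exon of Trappc6b, chr12:59043267-59044002, had 28.4, 38.0 and 32.4 against 13.4, 9.29 and 11.7 (-1.53, SE 0.357, edgeR adjusted p = 0.00193). This last call rested on low counts and 28.2% of its 32-base words occurred elsewhere. It was lost without MSC CK666 replicate 2 (adjusted p = 0.0219), without MSC control replicate 2 (0.0241) and with all 12 libraries in 1 fit (0.0477).

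The Glis3 window, chr19:28624607-28625128, had 529, 531 and 498 normalized counts in MSC control libraries and 221, 240 and 248 with CK666. The groups were clearly apart, with a 2.20-fold lower level (log2 fold change -1.14, SE 0.0914, edgeR adjusted p = 3.04e-17). The 4 h window over the most reduced Fhit window, chr14:9669772-9671197, was 1426 bp long. It shared 562 bp with the 584 bp window of 24 h, so most of it lay outside that window. It had 310, 356 and 318 in control and 199, 247 and 188 with CK666, again without overlap. It fell by 0.64 on the log2 scale (SE 0.107, edgeR adjusted p = 7.18e-06). The second Fhit window, chr14:9687902-9689503, had 402, 376 and 417 against 269, 280 and 227 and fell by 0.63 (SE 0.0969, edgeR adjusted p = 9.98e-07). Both passed the limit on the adjusted p and not that on the fold.

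The start sites had smaller log2 fold changes in MSC. The Fhit TSS window (chr14:11161883-11162391) had 381, 371 and 325 normalized counts in control and 400, 431 and 458 with CK666 (log2 fold change 0.26, edgeR adjusted p = 0.0622), and that of Glis3 (chr19:28676801-28680476) 908, 954 and 866 against 924, 782 and 884 (-0.08, adjusted p = 0.567). That of Trappc6b (chr12:59059762-59061727) fell by 0.29 (edgeR adjusted p = 0.000775), from 1133, 1100 and 1140 to 1038, 875 and 852. Those of its neighbours Gemin2 and Pnn, which encode a snRNP assembly factor and a splicing-associated desmosome protein, fell by 0.27 (edgeR adjusted p = 0.00189) and 0.23 (0.00137), and that of Sec23a had -0.14 (adjusted p = 0.0631). A larger fall, by 0.75 (edgeR adjusted p = 0.000963), was found at chr12:59073960-59075997 over a UTR of Pnn, from 118, 148 and 121 normalized counts to 81.2, 74.3 and 75.5, where the 24 h window had a log2 fold change of 0.05 with CK666.

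Over the 209 locus windows tested in MSC at 4 h, 3 were called lower and 0 higher, beside 0.427% and 0.590% of all tested windows. With the limit on the adjusted p alone, 13 were lower (2 at Fhit, 7 at Trappc6b and 4 at Glis3) and 0 higher, beside 2.16% and 1.95% of all. At Glis3 these were the most reduced window and 3 more that had been called at 24 h. The strongly open windows chr19:28388988-28389503 and chr19:28646210-28646741 fell by 0.46 (edgeR adjusted p = 4.46e-06) and 0.31 (0.000657). At 24 h both had been called with CytoD alone, with log2 fold changes of -0.02 and -0.43 with CK666. The window chr19:28590688-28591377 fell by 0.82 (0.000666). In 36 of the 209 windows (17.2%; 11.6% of all) every CK666 library lay below every control library.

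The 8 windows lost with CK666 at 24 h were covered by 7 windows at 4 h. Of these, 7 of 7 had a negative log2 fold change in MSC, beside 49.9% of all tested windows. The values ran from -1.98 to -0.29 with a median of -0.82, and 2 were called. The 10 windows lost with CytoD were covered by 9, of which 9 of 9 were negative in MSC with CK666, from -1.98 to -0.10 with a median of -0.46. Both sets include the windows over the most reduced one of each locus, so the 2 counts are not independent. The 24 h windows gained with CK666 or CytoD were covered by 1 and 2 windows at 4 h, with positive log2 fold changes in MSC of 0.84 and of 0.39 and 0.40, none of which was called.

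The run of windows without overlap at 4 h in MSC held 3 windows over 4.2 kb at Trappc6b, 1 window of 1.4 kb at Fhit and 1 window of 0.5 kb at Glis3. It reached 9.7 kb at Trappc6b without MSC control replicate 1, 3.5 kb and 2.8 kb at Fhit without MSC CK666 replicates 2 and 3, and 1.5 kb at Glis3 without MSC CK666 replicate 1. The summed counts of the Trappc6b locus were 13138, 13204 and 13217 in control and 10403, 9777 and 9486 with CK666, 25% lower with no overlap (exact two-sided permutation test, p = 0.1, the smallest that 3 against 3 libraries allow). Those of Glis3 were 9.9% lower (exact permutation p = 0.1) and those of Fhit differed by 0.1% (exact permutation p = 0.900). The Trappc6b sum was not split into lost and other windows at 4 h. Of 27 windows tested there, 20 had a negative log2 fold change (74.1%; 49.9% of all), with a median of -0.23. In 10 of them (37.0%; 11.6% of all) every CK666 library lay below every control library.

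Untreated NIH3T3 cells differed from untreated MSC in counts at these loci. Counts also follow DNA copy number, which was not measured and cannot be told apart from accessibility here. Trappc6b 3′ end and Fhit windows were far less open in NIH3T3 cells and the Glis3 window nearly as open. The 2476 bp window past Trappc6b had 114, 132 and 152 normalized counts in NIH3T3 control libraries, 31.5-fold below MSC (log2 difference MSC minus NIH3T3 4.98), while the Trappc6b TSS had 992, 810 and 972 (0.28, edgeR adjusted p = 0.0145). The Fhit TSS window, with 381, 371 and 325 in MSC, was near the floor in NIH3T3 cells, with 4.32, 11.3 and 7.66 normalized counts, a 44.3-fold difference (5.47, edgeR adjusted p = 2.94e-37). The Glis3 window had 363, 379 and 365 (0.49, edgeR adjusted p = 0.000226) and the Glis3 TSS 589, 586 and 556 (0.66, edgeR adjusted p = 5.23e-08).

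Of the 230 windows, 75 were called higher in MSC (32.6%; 18.3% of all tested windows) and 18 lower (7.83%; 16.2% of all). Fhit held 46 of the higher windows among its 112, Trappc6b 6 of 29 and Glis3 23 of 89. Fhit windows were spread widely in both directions. That starting at 10013559 differed by 6.31 on the log2 scale and that starting at 9861089 by 5.88, and the one at chr14:9960337-9960888 by -3.68, being more open in NIH3T3 cells. The median level per kb over a locus was 31.9 in MSC and 16.4 in NIH3T3 cells at Fhit, 77.1 and 53.7 at Trappc6b and 36.7 and 28.2 at Glis3, beside 31.8 and 31.7 over all windows. Summed counts were 2.75, 1.84 and 1.73 times as high in MSC (exact permutation p = 0.1 each, the smallest possible).

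With CK666 in NIH3T3 cells, none of these losses was called, and the 4 h windows over the pair of Fhit losses moved the other way. The Glis3 window had 287, 409 and 362 normalized counts with CK666, which overlapped control (log2 fold change -0.04, 95% interval -0.30 to 0.23, edgeR adjusted p = 0.895). The 2476 bp window past Trappc6b had 107, 101 and 100 (-0.35, 95% interval -0.70 to -0.01, adjusted p = 0.181), where the groups did not overlap. The 3′ UTR window had too few counts to be tested in NIH3T3 cells alone. At Fhit the 1426 bp window over the most reduced one rose from 54.0, 59.9 and 68.9 to 101, 96.6 and 110 (0.77, SE 0.201, edgeR adjusted p = 0.00499). The window over the second loss rose from 35.6, 37.3 and 33.5 to 61.4, 74.7 and 67.1 (0.95, SE 0.247, edgeR adjusted p = 0.00478). Both were within the fold limit.

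**Figure D4:**
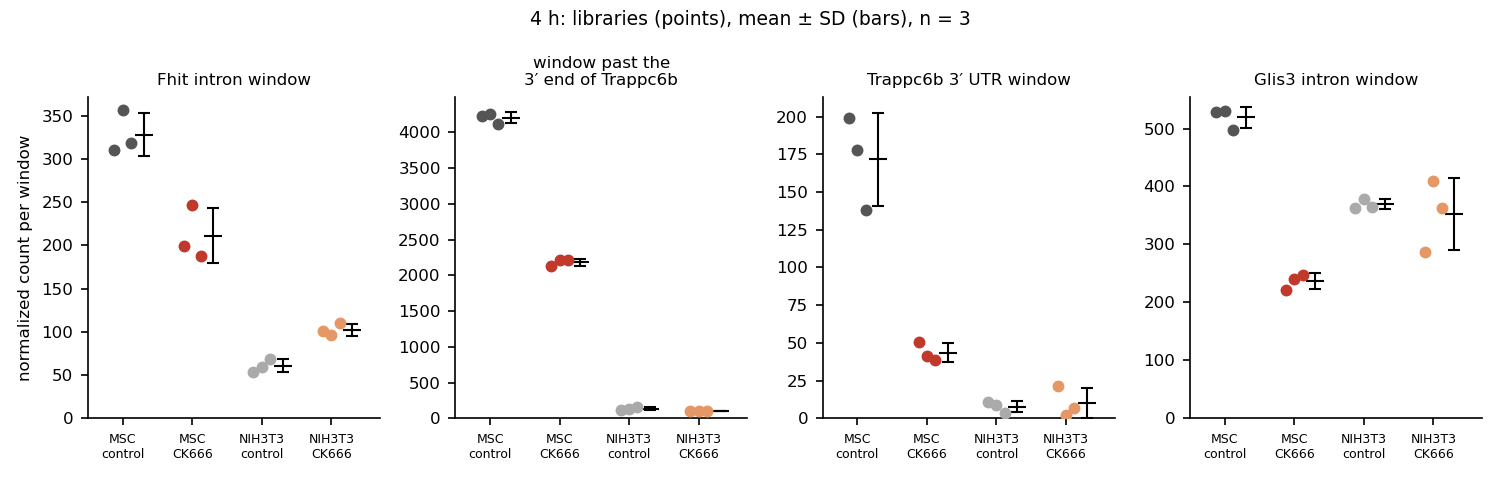
Normalized counts per window (y axis) of each library at 4 h for the windows over the most reduced 24 h windows and for the Trappc6b 3′ UTR window, with 3 points per group and mean ± SD beside them. MSC CK666 libraries lie below MSC control libraries in each of the 4 windows. NIH3T3 CK666 libraries lie above their controls at Fhit (96.6 to 110 against 54.0 to 68.9) and overlap them at Glis3 (287 to 409 against 363 to 379).

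The difference between the cell types was tested as an interaction over the 12 libraries, NIH3T3 minus MSC. It was 1.08 (SE 0.169, edgeR adjusted p = 6.31e-06) for the Glis3 window, 1.38 (SE 0.225, adjusted p = 1.28e-05) and 1.56 (SE 0.241, adjusted p = 4.32e-06) for the pair of Fhit windows, and 0.57 (SE 0.160, adjusted p = 0.0217, not called) for the 2476 bp window past Trappc6b. The 3′ UTR window had 10.8, 8.68 and 3.83 normalized counts in NIH3T3 control libraries and 21.5, 2.20 and 7.01 with CK666, and its interaction was 2.22 (SE 0.562, edgeR adjusted p = 0.00869). This call was lost under 10 of 17 alternatives, and without NIH3T3 CK666 replicate 1, the library with 21.5, the value was 1.25 (adjusted p = 0.353). The Glis3 call was lost without NIH3T3 CK666 replicate 2, where the value of 0.90 was under the fold limit. Among all 230 windows 4 were called higher in the interaction (1.74%; 0.498% of all tested) and 1 lower (0.435%; 0.905% of all).

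The windows called in NIH3T3 cells at both limits did not lie over a 24 h loss. Over 170 tested windows 3 were called lower (1.76%) and 1 higher (0.588%), beside 1.67% and 1.87% of all tested windows, so that the share called lower was that of the background, and with the limit on the adjusted p alone 5 were lower and 4 higher, beside 4.35% and 2.51%. The 3 called lower lay in introns of Fhit. The window chr14:9960337-9960888, with 464 normalized counts per kb in untreated NIH3T3 cells and 35.9 in MSC, fell from 247, 218 and 302 normalized counts to 84.4, 109 and 107 (log2 fold change -1.32, SE 0.162, edgeR adjusted p = 4.58e-09). In MSC it had 16.2, 23.0 and 20.2 in control and 27.7, 12.7 and 27.0 with CK666 (0.16). The interaction was -1.5 (SE 0.348, edgeR adjusted p = 0.00353), and was not called without MSC CK666 replicate 1 or 3, MSC control replicate 1 or 3 or NIH3T3 control replicate 3 (adjusted p = 0.0103 to 0.0340).

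The windows chr14:9618350-9618910 and chr14:10823970-10824499 fell by 1.30 (edgeR adjusted p = 0.0015) and 1.77 (0.0025) in NIH3T3 cells. Neither interaction passed (adjusted p = 0.0197 and 0.0633). The first call was lost without NIH3T3 control replicate 3 (adjusted p = 0.0275), and the second without NIH3T3 control replicate 1 (0.0222) or 3 (0.0214) or CK666 replicate 3 (0.0126). The window called higher, chr19:28408569-28409227 in Glis3, rose from 15.1, 21.7 and 1.91 normalized counts to 23.0, 48.3 and 37.0 (1.5, SE 0.415, edgeR adjusted p = 0.00858). It overlapped between groups and was not called without NIH3T3 control replicate 3 (adjusted p = 0.126), control replicate 1 (0.0250), CK666 replicate 2 (0.0841) or CK666 replicate 3 (0.0357).

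Of the 7 windows over the 24 h losses with CK666, 5 were tested in NIH3T3 cells and 3 of these 5 were negative, with a median log2 fold change of -0.04 and a range of -0.95 to 0.95. For the losses with CytoD 6 of 7 were negative, with a median of -0.26, where 47.3% of all tested windows were negative. The one that came nearest to the limits was chr19:28590688-28591377 in Glis3, where accessibility fell by 0.95 (edgeR adjusted p = 0.000296), from 153, 125 and 131 to 61.4, 95.5 and 51.0, as it did in MSC, where it fell by 0.82. Every CK666 library lay below every control library in 32 of the 170 windows (18.8%; 14.7% of all). Runs were absent at Fhit and Glis3 and held 1 window of 2.5 kb at Trappc6b, or 12.1 kb without NIH3T3 control replicate 3. Summed counts differed by 3.4% at Fhit, -6.7% at Trappc6b and -4.4% at Glis3 (exact permutation p = 0.600, 0.400 and 0.1). Scaled by total counts the sums differed by 13.2%, 2.2% and 4.3%, so that the direction turned at Trappc6b and Glis3, and the Trappc6b run was 0 kb long.

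**Figure D5:**
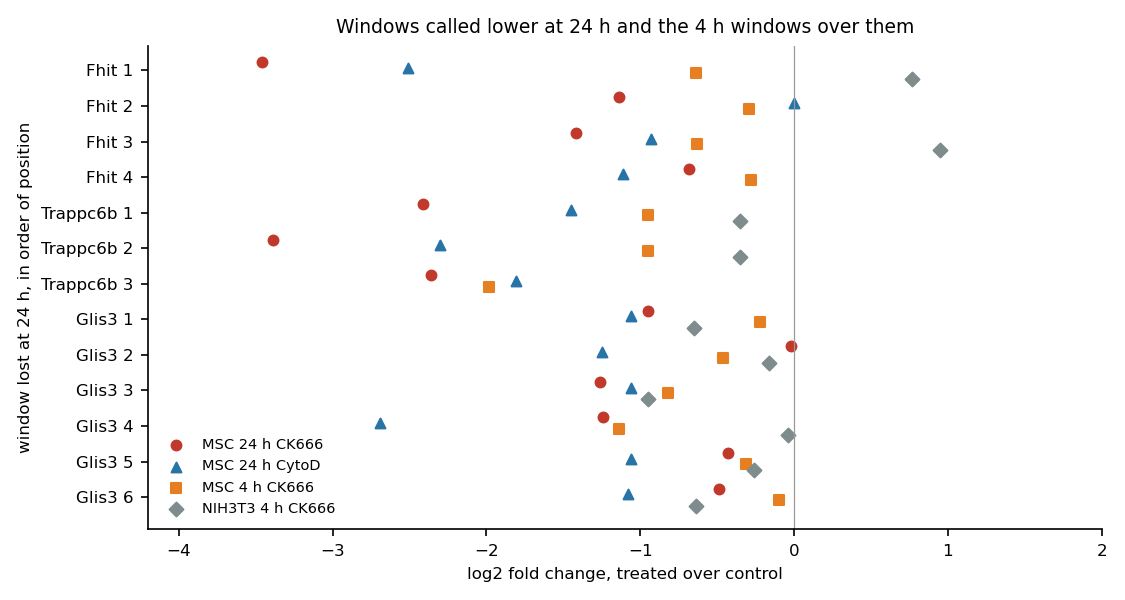
Log2 fold changes of treated over control (x axis) for the 13 windows called lower at 24 h, numbered by position within each locus (y axis), with CK666 and CytoD at 24 h in MSC and with CK666 at 4 h in MSC and NIH3T3 cells for the overlapping 4 h window. All MSC 4 h points lie to the left of 0, between -1.98 and -0.10, while NIH3T3 points lie on both sides, up to 0.95 at Fhit.

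Sequence features of the 13 lost windows were set beside those of all windows, which were not matched for openness or for holding a TSS. The choice of loci did not use sequence, but the motifs were chosen with earlier results of these data known. In the central 300 bases AP-1 was matched in 6 of 13 (46.2%; 21.0% of all windows and 23.7% of the other 194 windows of the loci), TEAD in 5 (38.5%; 19.9% and 23.2%), RUNX in 4 (30.8%; 27.7% of all) and the NFI core in 3 (23.1%; 17.7% of all). C/EBP was matched in 0 of 13 (14.2% of all) and in 3 of the 6 gained windows. The AhR core was matched in 1 (7.69%; 15.3% of all) and the SRF CArG box in 0 (1.55% of all). The median GC content was 45.3% in the lost windows and 47.0% in all, but 43.0% in the other windows of the loci. Over whole windows AP-1 was matched in 7 of 13 (53.8%; 34.2% of all) and NFI in 4 (30.8%; 37.0% of all), so that the share of NFI went from above to below that of all windows. A match is a description of letters and not a binding site.

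Windows of related genes, taken by the same rule, were counted in the same comparisons. The shares of all tested windows called lower and higher were 1.06% and 1.88% with CK666 at 24 h, 1.40% and 0.980% with CytoD, 0.427% and 0.590% in MSC at 4 h, and 1.67% and 1.87% in NIH3T3 cells. Around the 13 other TRAPP subunit genes 5 were called lower and 5 higher of 438 with CK666 at 24 h (1.14% each), 3 and 4 with CytoD, 1 and 1 of 370 in MSC at 4 h, and 6 and 5 of 397 in NIH3T3 cells. Around the GLI, GLIS and ZIC zinc finger genes the counts were 0 and 4 of 318, 4 and 0, 0 and 3 of 289, and 9 and 9 of 341. Around other histidine triad genes they were 1 and 1 of 117, 1 and 0, 1 and 0 of 109, and 0 and 3 of 108. Around 13 other long genes of common fragile sites, such as Wwox and Immp2l, they were 13 and 27 of 1251 (1.04% and 2.16%), 18 and 10, 2 and 5 of 1381, and 37 and 22 of 1587. With CK666 at 24 h the 3 described loci had 8 lower and 2 higher of 210, the contrast by which they were picked.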

How the data were processed

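The data were ATAC-seq counts of 21 libraries in 7 groups of 3, grouped by their labels. The authors prepared each library by Omni-ATAC, processed the reads with PEPATAC, bowtie2 and MACS2 and merged peaks across replicates. They deposited raw read counts per window for the 24 h and the 4 h experiment, without normalization. The build is mm10 per the labels, which is GRCm38. Their tool versions and read filters were not given in the sources used here. The counts of the 9 siRNA libraries do not follow the window names of their table, and these libraries were not analysed here.

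Counts were filtered with edgeR's default, scaled by TMM and tested across all windows of a table with edgeR 4.0.16 (quasi-likelihood test, Benjamini-Hochberg adjustment) in R 4.3.3. The 9 libraries at 24 h were fitted together, the MSC and the NIH3T3 libraries at 4 h alone, and the 12 at 4 h together for the interaction and the untreated cell types. SE were derived from the fold change and the F statistic. TMM takes most windows as unchanged, so a shift of the whole genome would be scaled away. Words of 32 bases and motifs were counted in the reference with Python 3.11.15.

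The members, gene lists and motifs were chosen with earlier results of these data known. Named windows were, per locus, the one with the largest loss at 24 h (mean of at least 50) and the nearest 2 on each side. Windows at the 5′-most TSS of the gene and a further Fhit start were named too. So were windows called with CK666 or CytoD at 24 h or with CK666 at 4 h, and 4 h windows over the largest losses. Windows with an adjusted p under 0.01 but no call, those of neighbouring genes and the largest untreated differences were named after their values were seen. One cell type marker is not reported here. The code was tested on simulated data. Alternatives were other scalings, no low-count filter, no fold limit, DESeq2 1.42.0, a replicate block, all 12 libraries in 1 fit, another overlap, whole-window motifs and leaving out each library.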

Additional observations from a re-analysis of the deposited data

Results flagged for a closer look

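For 5 windows the effect of CK666 at 4 h differed between MSC and NIH3T3 cells in the test of the difference itself, given as the log2 fold change in NIH3T3 cells minus that in MSC. It was 1.08 for the Glis3 window chr19:28624607-28625128, 1.38 for the Fhit window chr14:9669772-9671197 and 1.56 for the Fhit window chr14:9687902-9689503, all lower in MSC, and higher in NIH3T3 cells for the pair in Fhit. It was 2.22 for the Trappc6b 3′ UTR window chr12:59042370-59043156, which had 21.5 normalized counts at most in NIH3T3 libraries. It was -1.50 for the Fhit window chr14:9960337-9960888, which was lower in NIH3T3 cells and had at most 27.7 normalized counts in MSC.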

How the results depend on the processing

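Of 642 values of single windows under alternatives, 602 kept their direction and side of the limits, 34 lost a call, 2 gained one and 4 turned. The turned values were those of Fhit chr14:9960337-9960888 in MSC at 4 h (0.16), which ranged from -0.02 to 0.46 as libraries were left out (-0.02 and -0.01 without MSC CK666 replicates 1 and 3), and of Glis3 chr19:28624607-28625128 in NIH3T3 cells (-0.04), which was 0.07 with total counts and ranged from -0.18 to 0.07 as libraries were left out (0.07 without CK666 replicate 1). None of the 4 passed the limits. With no fold limit the called windows were 18 in place of 10 with CK666 at 24 h, 13 in place of 3 in MSC at 4 h and 9 in place of 4 in NIH3T3 cells.

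Set against TMM over the 12 libraries at 4 h, scaling by total counts shifted log2 fold changes by 0.13 in NIH3T3 cells with CK666. Between untreated cell types this scaling shifted log2 differences by -0.23. It gave 7 called windows in NIH3T3 cells (3 lower, 4 higher, against 3 and 1), differences in summed counts of 13.2% at Fhit (3.4% with TMM) and 4.3% at Glis3 (-4.4% with TMM, so the direction turned) in NIH3T3 cells and -15.4% at Trappc6b with CytoD, and a run of 0 kb at Trappc6b in NIH3T3 cells. Over whole windows TEAD was matched in 8 of the 13 lost windows (61.5%; 39.8% of all windows), RUNX in 7 (53.8%; 50.9%), C/EBP in 2 (15.4%; 30.4%), the AhR core in 3 (23.1%; 32.5%) and the CArG box in 1 (7.69%; 4.16%), the last now above the share of all windows.

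Leaving out each library gave 7 to 12 called windows with CK666 and 9 to 14 with CytoD at 24 h (9 without control replicate 3), 2 to 4 in MSC and 2 to 6 in NIH3T3 cells at 4 h (2 without NIH3T3 control replicate 1 or 3), 3 to 5 in the interaction (3 without MSC CK666 replicate 3, MSC control replicate 1 or NIH3T3 control replicate 3) and 80 to 93 between untreated cell types. Runs were 7.6 to 9 kb at Fhit and 3.6 to 10 kb at Trappc6b with CK666, and 0.6 to 5 kb at Fhit and 0.7 to 4.2 kb at Glis3 with CytoD. At 4 h in MSC they were 1.4 to 3.5 kb at Fhit, 4.2 to 9.7 kb at Trappc6b and 0.5 to 1.5 kb at Glis3, and in NIH3T3 cells 2.5 to 12.1 kb at Trappc6b and 0 to 0.5 kb at Glis3.

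Samples with the same replicate number did not deviate together (correlations from -0.057 to 0.028), so no pairing by number was seen. This cannot show whether libraries were prepared in pairs or batches, which the labels do not say. With the replicate number as a block, 10 and 12 windows were called with CK666 and CytoD at 24 h, 3 and 4 in MSC and NIH3T3 cells at 4 h, 5 in the interaction and 92 between untreated cell types. The precision is limited by 3 libraries per group and by low counts, as in the 3′ UTR window in NIH3T3 cells.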
